A study of Mus musculus with 12 samples.

Results

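The transcripts of Nrf2, of its inhibitor Keap1 and of 8 genes that Nrf2 activates were measured in sorted HSCs of 12 mice, 6 of them WT and 6 Pon2-/-. The 10 genes were taken by name from the 49585 genes counted in each sample: the regulators Nfe2l2 (which encodes Nrf2) and Keap1, and the targets Nqo1, Hmox1, Gclc, Gclm, Slc7a11, Txnrd1, Srxn1 and G6pdx. The question was whether the targets were higher where the Nfe2l2 transcript was higher. Nfe2l2 had a mean 1.69-fold higher in Pon2-/- HSCs. Of the 7 targets that could be tested, 5 had a lower fitted mean, beside 50.8% of all tested genes. None of the 9 genes that could be tested was called different between genotypes, where 24 of all 11848 tested genes were called (0.203%).

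Mice were 10 to 14 weeks old and are given as C57BL/6J in both groups. WT mice came from a commercial breeder, and Pon2-/- mice carry a gene trap with a loxP-flanked reporter in an intron of Pon2, the gene of the antioxidant enzyme paraoxonase 2, in all cells of the body. Bone marrow cells negative for lineage markers and CD135 and positive for Sca1, ckit and CD150 were sorted, a gate that holds long-term HSCs together with a population of multipotent progenitors. For each mouse, 8 wells of 10 cells were collected and Smart-seq2 libraries, which carry no strand information, were sequenced, so that 1 sample is 1 mouse. Genotype and source of the mice cannot be told apart in this design.

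Nrf2 is a transcription factor that is held at low level by Keap1, an adaptor that brings it to the Cul3 ubiquitin ligase for degradation. Oxidants and electrophiles modify cysteines of Keap1, newly made Nrf2 then escapes degradation, pairs with small Maf proteins and binds antioxidant response elements of genes for glutathione synthesis, thioredoxin recycling, NADPH supply and detoxification. Because this control acts on the protein, the level of the Nfe2l2 transcript and the activity of Nrf2 need not move together, and only transcripts were measured here. In HSCs, Keap1 and Nrf2 are known for roles in quiescence, self-renewal and the response to stress.

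The core of the antioxidant response element, TGACNNNGC, was looked for on both strands of promoter windows from RefSeq (250 bases before to 50 after a start site, build GRCm38.p6). Of the 10 genes, 8 had a window, and Hmox1 and Gclc had none in the table. The core was in a window of 5 of these 8 genes, Nfe2l2 itself included, and in 14% of 27025 genes with a window (12.4% of 32851 windows). Keap1, Nqo1 and Slc7a11 had no match in their windows, which says nothing about elements farther away. The matches are printed with 10 bases on each side and the core in capitals, so that the bases around the fixed letters can be compared.
Nfe2l2, chr2:75704885-75704913, minus strand: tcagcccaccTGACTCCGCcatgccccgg
Gclm, chr3:122245413-122245441, minus strand: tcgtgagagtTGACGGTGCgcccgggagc
Txnrd1, chr10:82859104-82859132, minus strand: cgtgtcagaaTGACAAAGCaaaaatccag
Srxn1, chr2:152105542-152105570, minus strand: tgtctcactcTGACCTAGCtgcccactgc
G6pdx, chrX:74428919-74428947, plus strand: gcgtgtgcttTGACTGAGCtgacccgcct
The core of Nfe2l2 begins 240 bases upstream of its start site, those of Gclm, Txnrd1 and G6pdx lie 134, 92 and 57 bases upstream, and that of Srxn1 lies 28 bases after the start. Txnrd1 had 3 windows, and the other genes with a match had 1 each. The core of Txnrd1 was in window 2, whose start site lies inside the gene, which begins at 82833951. The start site of the G6pdx window also lies inside its gene, which begins at 74429194 on the minus strand. A related motif, TGANTCA, which AP-1 and NF-E2 type factors bind, was in windows of 8.97% of genes and, among the 8 genes, only in that of Srxn1. Both motifs can fall on the same bases, but none of the matches printed here does. The 250 bases upstream of Srxn1 are shown because they hold 2 copies of TGANTCA (capitals), at 102 and 45 bases before the start.
Srxn1, chr2:152105274-152105523, plus strand: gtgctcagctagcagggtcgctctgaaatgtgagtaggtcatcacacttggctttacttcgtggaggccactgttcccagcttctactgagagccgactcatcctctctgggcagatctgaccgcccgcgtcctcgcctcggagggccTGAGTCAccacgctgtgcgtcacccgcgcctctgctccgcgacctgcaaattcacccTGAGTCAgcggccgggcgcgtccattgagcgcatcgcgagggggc
A match of letters is a description of the sequence and does not show that a factor binds there.

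Samples held 12967791 to 24228280 counts on 13941 to 15656 genes, and 4.89 to 9.55% of the counts were mitochondrial, with overlapping ranges between genotypes. Pon2 itself (ENSMUSG00000032667.17) ranged from 55.8 to 200.2 CPM (counts per 1000000 of the scaled library) in WT and 1.15 to 32.8 CPM in Pon2-/- HSCs, lower in all 6 Pon2-/- mice (exact permutation p = 0.00216, two-sided, the smallest that 6 against 6 mice can give). All 6 listed HSC markers were present. They summed to 1234 to 1675 CPM in WT and 1334 to 1663 CPM in Pon2-/- HSCs. Kit, Ly6a and Slamf1 of this list encode ckit, Sca1 and CD150 of the sort gate, while Procr, Mecom and Hlf were not sorted on. Flt3, which encodes the CD135 that the gate excludes, lay between 4.55 and 48.8 CPM in WT and between 26.5 and 64.4 CPM in Pon2-/- HSCs (exact permutation p = 0.123). Granulocyte and monocyte markers (7 of 7 with a count in WT, 5 of 7 in Pon2-/- HSCs) had the widest range in CPM. Their sum went from 871 to 7354 CPM in WT and from 790 to 11310 CPM in Pon2-/- HSCs. S100a8 alone ranged from 0 to 5372 CPM in WT and from 17.2 to 8506 CPM in Pon2-/- HSCs. Of the erythroid markers, Car1 was at 0 in every sample, and the sum was 9.06 to 73.8 CPM in WT and 20.8 to 105.7 CPM in Pon2-/- HSCs. Hbb-bt, a beta-globin gene, stood apart within this list with 6.04 to 37.8 CPM in WT and 0 to 1.1 CPM in Pon2-/- HSCs. The other erythroid markers with a count overlapped between the genotypes. Gata1 had 0 to 46.8 CPM in WT and 1.91 to 60.1 CPM in Pon2-/- HSCs. The ranges were 0 to 3.98 and 0 to 3.64 CPM for Hba-a1, and 0 to 11.2 and 0 to 4.17 CPM for Alas2. Of 5 macrophage markers Siglec1 was at 0 everywhere, and the sum was 16.5 to 66.8 CPM in WT and 0.893 to 97.9 CPM in Pon2-/- HSCs. None of the 8 marker sums differed between genotypes by the exact permutation test (lowest p = 0.123), and their part in the results on Nrf2 genes was not tested. By Xist and Y-linked genes the WT group held 3 females and 3 males and the Pon2-/- group 2 females and 4 males. In bulk samples a smaller share of expressing cells and less RNA per cell cannot be told apart.

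Expression per length gives the order of the 10 genes within HSCs. Nfe2l2 was the most abundant, with a mean of 42.2 CPM per kb of exon over the 12 mice, and it was above G6pdx, the next gene, in 12 of 12 mice (exact sign-flip permutation p = 0.000488). G6pdx (16.1 CPM per kb), Nqo1 (15.8), Keap1 (12.5), Gclm (10.5), Txnrd1 (10.2), Srxn1 (8.15) and Gclc (6.31) followed, and no neighbours among these 7 differed beyond their spread. Gclc was above Hmox1 (3.27 CPM per kb) in 10 of 12 mice (exact sign-flip permutation p = 0.00342). Slc7a11 came last with 0.206 CPM per kb, and its difference from Hmox1 was within the spread between mice (exact sign-flip permutation p = 0.201). Neighbours in the order thus differed in 2 of 9 pairs, below Nfe2l2 and below Gclc.

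The genes also differed in how evenly the mice expressed them. The SD of log2 CPM within a genotype was small for Nfe2l2, smaller than that of all but 11.8% of the 11848 tested genes, and for Keap1 and Txnrd1 the share was 19.7% and 22.8%. Srxn1, Nqo1 and Hmox1 were at the other end, above 74.7%, 88% and 94.1% of genes. Counts were present in every mouse for 6 of the 10 genes, while Nqo1, Hmox1, Slc7a11 and Srxn1 lacked a count in at least 1 mouse. A floor of 3 counts corresponds to 0.12 to 0.232 CPM in these samples.

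**Figure D1:**
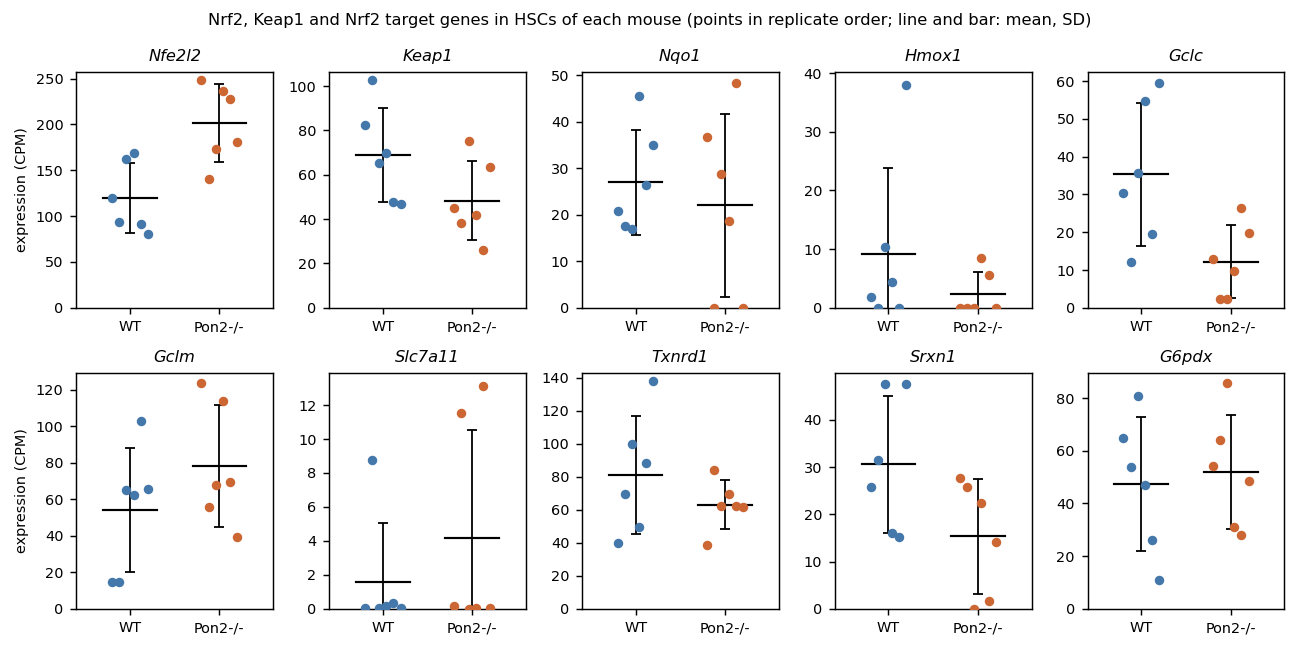
Expression in CPM (linear axes from 0, 1 panel per gene) of the 10 genes in HSCs of 6 WT (blue) and 6 Pon2-/- mice (orange); points stand in replicate order, and the horizontal line and the bar give the mean and the SD, the bar being cut at 0 for Hmox1 and Slc7a11. In the panel of Nfe2l2, 5 of 6 Pon2-/- mice lie above all WT mice, in that of Gclc 3 Pon2-/- mice lie below all WT mice, and Nqo1, Hmox1, Slc7a11 and Srxn1 have mice at 0.

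Nfe2l2 (ENSMUSG00000015839.6, GRCm38 chromosome 2 from 75675513 to 75704641, minus strand) had 120.2, 93.6, 162.7, 168.9, 91.3 and 80.6 CPM in WT replicates 1 to 6. It had 248.8, 140.5, 173.1, 236.2, 227.6 and 180.4 CPM in Pon2-/- replicates 1 to 6. Every Pon2-/- mouse but replicate 2 was above the highest WT mouse, so that the groups overlapped in 1 mouse. The WT mean was 119.6 ± 38.2 CPM, and that of the Pon2-/- mice was 201.1 ± 42.7 CPM (SD, n = 6 each). This is a log2 fold change of 0.75 (SE 0.22, 95% interval 0.27 to 1.23), or a fold of 1.69 with an interval of 1.21 to 2.35. By edgeR's quasi-likelihood test the p adjusted over all genes (Benjamini-Hochberg) was 0.834. Taken alone, the gene had an exact permutation p of 0.0108, and of 0.596 after adjustment over all tested genes, of which 328 (2.77%) were higher in Pon2-/- HSCs at a p under 0.05. DESeq2 gave an adjusted p of 0.0509, or 0.0243 without its Cook's filter, a setting in which 4.34% of all genes had one under 0.05, but the fold stayed below the threshold of 2. Among females the range was 93.6 to 162.7 CPM in 3 WT and 140.5 to 248.8 CPM in 2 Pon2-/- mice, and among males 80.6 to 168.9 CPM in 3 WT and 173.1 to 236.2 CPM in 4 Pon2-/- mice. With genotypes relabelled only within sex, the exact permutation p was 0.0143.

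Keap1 (ENSMUSG00000003308.15, chromosome 9 from 21229730 to 21239361, minus strand), the adaptor that marks Nrf2 for degradation, pointed the other way. Its expression was 82.4, 102.6, 65.1, 69.7, 47.8 and 46.8 CPM in WT replicates 1 to 6 and 44.9, 38.4, 75.4, 41.8, 26.2 and 63.5 CPM in Pon2-/- replicates 1 to 6. Below the lowest WT mouse were 4 of the 6 Pon2-/- mice, and Pon2-/- replicates 3 and 6 lay in the middle of the WT values. The means were 69.1 ± 21.3 and 48.4 ± 17.9 CPM (SD, n = 6 each), with a log2 fold change of -0.51 (SE 0.32, 95% interval -1.19 to 0.17). The difference was not larger than the spread between mice (exact permutation p = 0.0779). With single mice left out the permutation p was 0.0346 (without Pon2-/- replicate 3) to 0.175 (without WT replicate 2). Of the Keap1 exon bases, 10.9% are shared with the antisense gene Gm16754, and reads there cannot be told apart without strand information.

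Of the 10 genes, 9 passed the filter on low counts, and none was called by edgeR at an FDR below 0.05 and a fold above 2, where 24 of all 11848 tested genes were called (0.203%). None was called either by limma voom, which called 0.194% of genes, by DESeq2, which called 1.79%, or by DESeq2 without Cook's cutoff, which called 4.2%. Fitted means were higher in Pon2-/- HSCs for 3 of the 9 and lower for 6, beside 50.8% of all genes lower. The median log2 fold change was -0.35 over the 9 genes and also -0.35 over the 7 targets tested, beside -0.0092 over all tested genes. At an unadjusted p under 0.05, edgeR had Nfe2l2 higher and Gclc lower, beside 1.7% of all genes higher and 1.43% lower, and the exact permutation test gave the same 2 genes, beside 2.77% and 3.11%. With a background of these sizes and so few genes, the shares are not a result about the set as a whole. None of the 10 genes separated the genotypes without overlap, as 0.625% of all genes did.

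**Figure D2:**
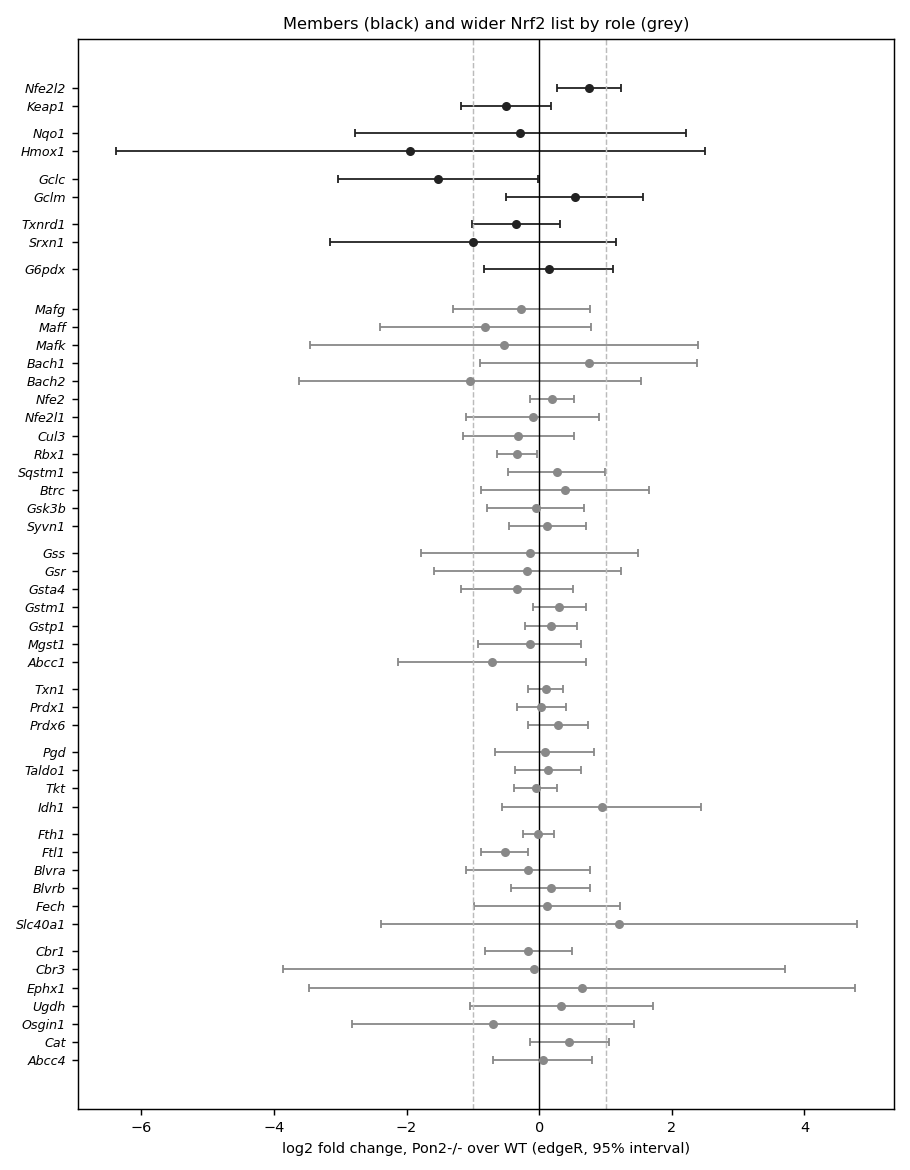
Log2 fold change of Pon2-/- over WT HSCs (horizontal axis) with its 95% interval from edgeR for the 9 tested genes (black) and the 40 tested genes of a wider Nrf2 list (grey), grouped by role; the solid line marks no difference and the broken lines a fold of 2. The intervals of Nfe2l2 (0.27 to 1.23) and Gclc (-3.04 to -0.012) lie on either side of 0, and all other intervals but those of Rbx1 and Ftl1 span it.

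The rate-limiting step of glutathione synthesis is carried out by glutamate-cysteine ligase, whose catalytic subunit is encoded by Gclc and whose modifier subunit, which makes the catalytic one more efficient, is encoded by Gclm. Gclc (ENSMUSG00000032350.9, chromosome 9 from 77754535 to 77794485, plus strand) had 30.3, 12.2, 35.8, 54.7, 19.4 and 59.5 CPM in WT replicates 1 to 6. In Pon2-/- replicates 1 to 6 it had 13, 2.23, 2.21, 9.76, 26.4 and 19.9 CPM. Of the Pon2-/- mice, 3 were below every WT mouse and none reached the WT mean. The means were 35.3 ± 18.8 and 12.2 ± 9.66 CPM (SD, n = 6 each), and the log2 fold change was -1.53 (SE 0.70, 95% interval -3.04 to -0.012), a fold of 0.347. By exact permutation Gclc alone had p = 0.026, or 0.759 adjusted over all tested genes, and edgeR gave p = 0.9999 after adjustment. Leaving out WT replicate 3, 4 or 6 raised the permutation p to 0.0519, 0.0584 or 0.0584. Relabelling within sex gave 0.0257, and the mean log2 CPM was lower by similar amounts in females (-2.10) and males (-1.93).

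Gclm (ENSMUSG00000028124.15, chromosome 3 from 122245557 to 122270732, plus strand) had 14.5, 14.8, 65.1, 62.7, 102.8 and 65.6 CPM in WT replicates 1 to 6. In Pon2-/- replicates 1 to 6 it had 123.9, 55.5, 67.7, 114.0, 69.4 and 39.3 CPM. The highest 2 Pon2-/- mice exceeded all WT mice, and the lowest Pon2-/- mouse lay above 2 WT mice. The log2 fold change was 0.53 (SE 0.48, 95% interval -0.50 to 1.56, exact permutation p = 0.21), which was not beyond the spread. In mean log2 CPM the difference was 1.78 in females and -0.15 in males, and whether the sexes differed was not tested.

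Slc7a11, the cystine transporter that supplies cysteine for glutathione, was nearly absent from most samples. Its gene (ENSMUSG00000027737.10, chromosome 3 from 49892526 to 50443614, minus strand) had at most 5 counts in 9 of the 12 mice. The other 3 mice were WT replicate 2 with 8.74 CPM and Pon2-/- replicates 2 and 5 with 11.6 and 13.1 CPM. It did not pass the filter on low counts, and the exact permutation test gave p = 0.682.

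Nqo1 and Hmox1 encode a quinone reductase, often used as a readout of Nrf2, and the enzyme that breaks down heme. Nqo1 (ENSMUSG00000003849.8, chromosome 8 from 107388225 to 107403206, minus strand) had 20.9, 17.6, 16.9, 45.5, 26.3 and 35.1 CPM in WT replicates 1 to 6 and 36.7, 0.0428, 28.7, 18.7, 48.3 and 0 CPM in Pon2-/- replicates 1 to 6. Among Pon2-/- mice, replicates 2 and 6 had no more than 1 count each, and the other 4 had values in the range of the WT mice or slightly above. These 2 mice set the scale of the difference: the log2 fold change of the fitted means was -0.29 (95% interval -2.79 to 2.21), the difference of mean log2 CPM was -2.34, and neither was beyond the spread (exact permutation p = 0.359).

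Hmox1 (ENSMUSG00000005413.8, chromosome 8 from 75093621 to 75100589, plus strand) was at 0 in 2 WT and 4 Pon2-/- mice. The other WT mice had 1.77, 10.4, 4.41 and 38.0 CPM (replicates 1, 3, 4 and 6) and the other Pon2-/- mice 8.52 and 5.6 CPM (replicates 4 and 5). Most of the WT mean came from replicate 6. The log2 fold change was -1.95 with a 95% interval from -6.39 to 2.49 (exact permutation p = 0.34), so that a difference in either direction lay within the spread between mice. Hmox1 is high in macrophages and erythroid cells, and the summed macrophage and erythroid markers given above overlapped between the genotypes. Hbb-bt, alone among the erythroid markers, was lower in all 6 Pon2-/- mice without overlap. Of all tested genes, 0.625% separated the genotypes without overlap in either direction. The part of such cells in the Hmox1 values was not tested.

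In the thioredoxin system, Txnrd1 encodes the reductase that keeps thioredoxin reduced, and Srxn1 the sulfiredoxin that repairs overoxidized peroxiredoxins. Txnrd1 (ENSMUSG00000020250.9, chromosome 10 from 82833951 to 82897712, plus strand) had 40.0, 69.7, 100, 49.6, 88.3 and 138.0 CPM in WT replicates 1 to 6 and 38.8, 84.3, 62.1, 69.6, 62.2 and 61.7 CPM in Pon2-/- replicates 1 to 6. The Pon2-/- values fell inside the WT range except for replicate 1, which was just below it. The log2 fold change was -0.35 (SE 0.31, 95% interval -1.02 to 0.31, exact permutation p = 0.396). Of the 7 targets tested this was the narrowest interval, and its upper bound was a fold of 1.24.

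Srxn1 (ENSMUSG00000032802.8, chromosome 2 from 152105516 to 152111376, plus strand) had 25.8, 31.6, 47.6, 16, 15.1 and 47.5 CPM in WT replicates 1 to 6. In Pon2-/- replicates 1 to 6 it had 27.8, 25.8, 0, 22.5, 1.65 and 14.2 CPM. Again a few mice carried the difference: 3 Pon2-/- mice were below all WT mice and the other 3 lay among them. The log2 fold change was -0.9986 (SE 1.003, 95% interval -3.15 to 1.16), and the difference of mean log2 CPM was -2.22 (exact permutation p = 0.0866). Without Pon2-/- replicate 1, 2 or 4 the permutation p was 0.0368 to 0.0433, and with any single mouse left out it was 0.0368 to 0.229.

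G6pdx (ENSMUSG00000031400.10, X chromosome from 74409483 to 74429194, minus strand) encodes glucose-6-phosphate dehydrogenase, the entry enzyme of the pentose phosphate pathway and a source of NADPH. It had 64.9, 53.9, 80.7, 47.1, 26.2 and 10.8 CPM in WT replicates 1 to 6 and 54.3, 63.9, 85.9, 31.1, 28.0 and 48.5 CPM in Pon2-/- replicates 1 to 6. The ranges overlapped, with a log2 fold change of 0.14 (SE 0.45, 95% interval -0.83 to 1.12, exact permutation p = 0.597). The sign depended on single mice, since the log2 fold change was -0.07 without WT replicate 6 and also -0.07 without Pon2-/- replicate 3. Its copy G6pd2 is 93.2% identical over 2332 bases and had 17 counts in all samples together, and 13.6% of the G6pdx exon bases are shared with Ikbkg.

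If targets followed the Nfe2l2 transcript from mouse to mouse, their log2 CPM would correlate with it. Over the 12 mice, the correlation was negative for 5 and positive for 3 of the 8 targets, and none of the 9 genes other than Nfe2l2 had a permutation p of Pearson's r under 0.05 (100000 permutations), beside 5.51% of all tested genes. Gclm had the highest value with r = 0.45 (p = 0.142, Spearman's rho 0.47, p = 0.127), higher than 92.3% of all genes. Txnrd1 had the lowest with r = -0.53 (p = 0.0769, rho -0.60, p = 0.0427), and only 3.7% of genes had a lower r. Across all tested genes the median r was -0.0027, with 5th and 95th percentiles of -0.50 and 0.51, and none had an adjusted p under 0.05.

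The other genes lay inside this range. Keap1 had r = -0.38 (p = 0.221, rho -0.38, p = 0.22), and G6pdx had r = 0.35 (p = 0.277, rho 0.17, p = 0.589). Gclc had r = -0.21 (p = 0.512, rho -0.31, p = 0.329), and Srxn1 had r = -0.31 (p = 0.358, rho -0.38, p = 0.22). Nqo1 (r = -0.03, p = 0.918, rho 0.17, p = 0.586), Hmox1 (r = 0.01, p = 0.968, rho -0.06, p = 0.847) and Slc7a11 (r = -0.07, p = 0.806, rho 0, p = 1) were close to 0. Adjusted over all tested genes, the p-values of r were 0.906 to 0.999 for the 8 genes tested.

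Pooled values mix the genotypes, so the correlations were repeated within each. Within the 6 WT mice r with Nfe2l2 was positive for 5 of the 8 targets, from 0.04 (Nqo1) to 0.71 (G6pdx), and within the 6 Pon2-/- mice it was also positive for 5, from 0.15 (Srxn1) to 0.73 (Nqo1 and Gclm). Gclc showed how far the pooled value can differ from these, with r = 0.35 within WT and 0.70 within Pon2-/- HSCs but -0.21 over all mice. Txnrd1 was negative in both (-0.45 and -0.67), G6pdx turned from 0.71 to -0.63, and Keap1 from 0.27 to -0.32. With 6 mice none of these reached an exact permutation p under 0.05 (lowest 0.106). Leaving out the 2 mice farthest from the median of Nfe2l2, WT replicates 5 and 6, gave r = 0.89 for Gclm (permutation p = 0.00049, adjusted over all tested genes 0.645) and r = -0.71 for Keap1 (p = 0.0205, adjusted 0.819). The same step took Txnrd1 to -0.17 and G6pdx to -0.48, and the remaining 5 genes to between -0.27 and 0.27.

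**Figure D3:**
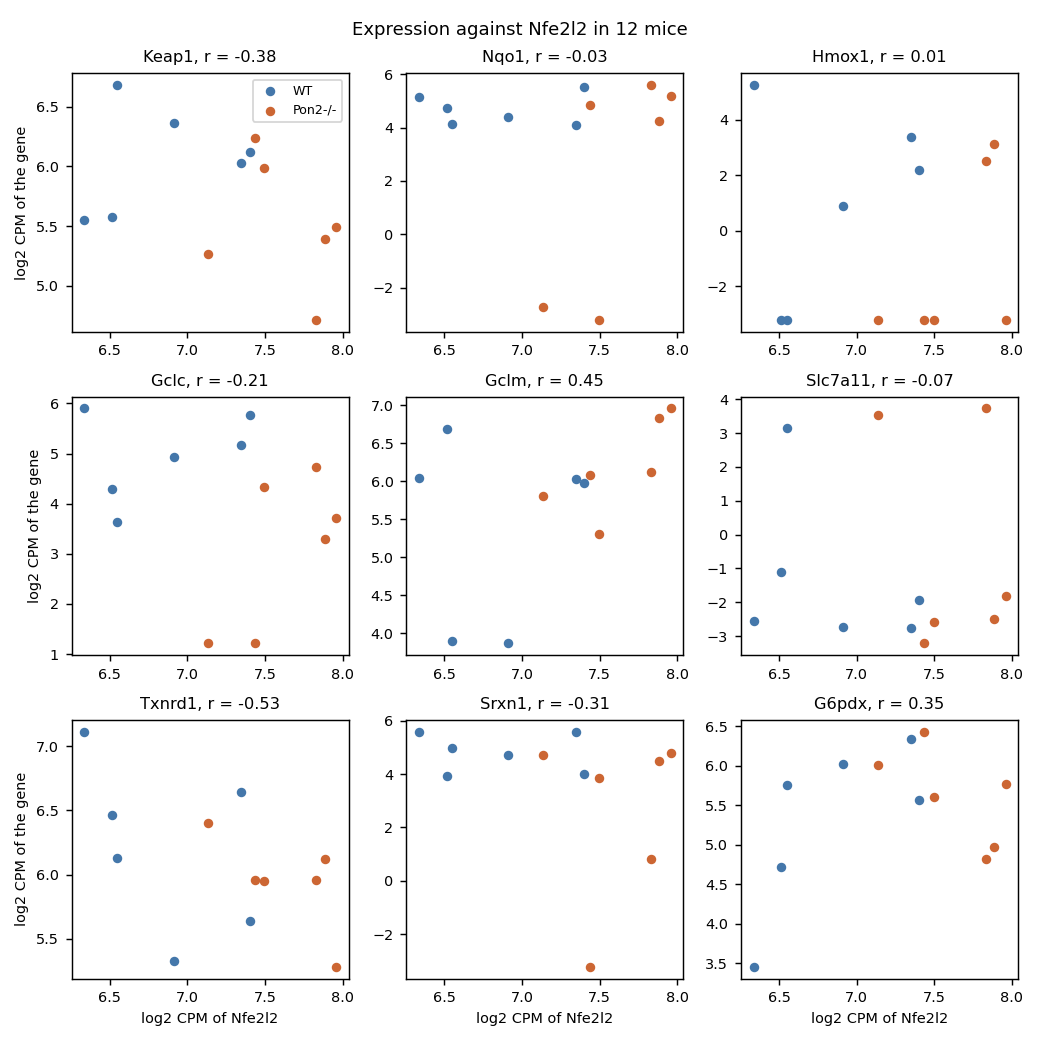
Log2 CPM of each of the other 9 genes (vertical axes) against log2 CPM of Nfe2l2 (horizontal axes) in 6 WT (blue) and 6 Pon2-/- mice (orange), with Pearson's r over the 12 mice in each panel title. The orange points lie to the right, and the cloud rises only weakly for Gclm (r = 0.45) and falls for Txnrd1 (r = -0.53); the low points of Nqo1 and Srxn1 are a few mice with few or no counts, while 6 of 12 mice are at 0 for Hmox1 and 9 of 12 have at most 5 counts for Slc7a11.

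For comparison, the 5 genes whose log2 CPM was most like that of Nfe2l2 over the 12 mice were Ikzf1, Gm13822, Gm20467, Lamb3 and H2afy, with r from 0.85 to 0.89. They were picked for this likeness, and no test is attached. Ikzf1, which encodes the lymphoid transcription factor Ikaros, averaged 54.0 ± 15.2 CPM over WT and 92.0 ± 18.7 CPM over Pon2-/- mice (SD, n = 6 each), with r = 0.76 within WT and 0.72 within Pon2-/- HSCs. H2afy, which encodes the histone variant macroH2A, had 351.4 ± 88.1 and 443.3 ± 69.6 CPM, with r = 0.93 and 0.51. Lamb3, a laminin chain, had 7.35 ± 11.6 and 15.8 ± 12.5 CPM, with r = 0.91 and 0.82. Gm13822 and Gm20467 are noncoding, and none of the 5 is among the Nrf2 genes listed here.

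A wider list of 45 genes of the pathway gave no call by edgeR either. Of these, 40 passed the filter on low counts, 20 had a higher and 20 a lower fitted mean in Pon2-/- HSCs, and the median log2 fold change was 0.0075, beside -0.0092 over all genes. By the exact permutation test 2 were lower at a p under 0.05 and none higher, where 3.11% and 2.77% of all genes were, and none separated the genotypes without overlap. The genes not tested were Gpx2 and Aox1, at 0 in every sample, and Abcc2, Me1 and Abcb6.

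Ftl1, the light chain of ferritin, which stores iron, was the gene of this list with the smallest p. It had 672.6, 748.1, 721.2, 694.9, 797.4 and 849.0 CPM in WT replicates 1 to 6 and 408.4, 442.4, 714.8, 573.5, 359.2 and 618.8 CPM in Pon2-/- replicates 1 to 6. All Pon2-/- mice but replicate 3 were below the lowest WT mouse. The means were 747.2 ± 66.1 and 519.5 ± 137.8 CPM (SD, n = 6 each), with a log2 fold change of -0.52 (SE 0.17, 95% interval -0.87 to -0.16) and an exact permutation p of 0.00649, or 0.534 adjusted over all tested genes. Fth1, the heavy chain that assembles with it, had 2572 ± 136.6 and 2537 ± 391.3 CPM and a log2 fold change of -0.01 (95% interval -0.24 to 0.22). The count of Ftl1 is uncertain, because its copy Ftl1-ps1 is 99.6% identical over 910 bases and held 1916 counts over all samples, and 34.6% of its exon bases are shared with other genes. Per length these were the most abundant genes of the iron and heme group, with 736.4 CPM per kb for Fth1 and 472.6 for Ftl1.

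Among partners and regulators (13 genes, all tested, 5 with a higher and 8 with a lower fitted mean), Rbx1, the RING subunit of the Cul3 ligase that Keap1 serves, had a mean of 307.3 ± 35.9 CPM over the WT mice and of 242.9 ± 46.9 CPM over the Pon2-/- mice (SD). Its log2 fold change was -0.34 (95% interval -0.64 to -0.027, exact permutation p = 0.0325, adjusted over all tested genes 0.787), and 4 Pon2-/- mice were below all WT mice. The most abundant genes of this group per length were Nfe2, the hematopoietic relative of Nrf2 (log2 fold change 0.19, 95% interval -0.14 to 0.53), and Sqstm1, which encodes the autophagy receptor p62 that binds Keap1 (0.26, -0.47 to 0.9989). Expression of Nfe2 was 148.9 CPM per kb over all mice, above the 42.2 CPM per kb of Nfe2l2.

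None of the most abundant downstream genes of the other groups passed the test. In glutathione use and export (9 genes, 7 tested), Gstm1 and Gstp1, both glutathione transferases, had log2 fold changes of 0.30 (95% interval -0.09 to 0.70) and 0.18 (-0.21 to 0.57). In the thioredoxin and peroxiredoxin group (3 genes, all with a higher fitted mean), Txn1, thioredoxin itself, and Prdx6 had 0.10 (-0.16 to 0.36) and 0.28 (-0.17 to 0.74). In NADPH supply (5 genes, 4 tested), Taldo1 and Tkt, enzymes of the pentose phosphate pathway, had 0.13 (-0.36 to 0.63) and -0.06 (-0.38 to 0.27). In detoxification (8 genes, 7 tested), Cat, which encodes catalase, and Cbr1, a carbonyl reductase, had 0.45 (-0.14 to 1.05) and -0.16 (-0.81 to 0.49). The upper bound of Txn1 corresponds to a fold of 1.29, and that of Fth1 to a fold of 1.16.

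Abcc2, an exporter of conjugated compounds that Nrf2 can activate, had no count in any WT mouse and 641 counts in 4 Pon2-/- mice. The Pon2-/- mice had 19.4, 0, 0, 12.6, 2.75 and 4.23 CPM in replicates 1 to 6, so that 2 mice of this genotype were at 0 like the WT group. It did not pass edgeR's filter, the exact permutation test gave p = 0.0606, and DESeq2 called it, as it called 1.79% of the 16998 genes it tested.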

How the data were processed

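HSCs of 6 WT and 6 Pon2-/- mice were profiled by RNA-seq, and groups and replicate numbers were taken from the sample labels. The authors checked reads with FastQC 0.11.5, trimmed them with Trimmomatic 0.36, mapped them with STAR 2.5.3a to GRCm38.p5, and counted them on the genes of GENCODE release M12. The values deposited by the authors are raw counts per gene. The unstranded column was used. How the wells of a mouse were combined is not given in the sources used here. Files hold 49585 genes, and 49326 matched a name in GENCODE release M21, which also gave positions and exon lengths. The 10 genes, the wider list, the tests and the markers were chosen with earlier results of these data known.

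Counts were fitted in R 4.3.3 with edgeR 4.0.16 (TMM scaling, filterByExpr, quasi-likelihood test, genotype as the only term), with p adjusted by Benjamini-Hochberg over the 11848 tested genes. A call required an FDR below 0.05 together with a log2 fold change beyond 1 in either direction. CPM are counts per 1000000 of the TMM-scaled library, and log2 CPM used a prior count of 2. Single genes were compared by two-sided exact permutation tests of mean log2 CPM, and neighbours in the order of levels by exact sign flips over the 12 mice. The fitted fold change compares mean counts, while the permutation test compares mean log2 CPM, in which samples at 0 weigh more. WT and Pon2-/- mice differed in source as well as in genotype. The p-values therefore compare the groups as they are, with each difference set against the spread between these samples. The 95% intervals come from edgeR and include the spread between mice, while the floor of 3 counts covers counting error only.

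Genes named were the 10 genes, Pon2, Abcc2, genes of the wider list at an exact permutation p under 0.05, the 2 most abundant per length of each role, and the 5 genes most like Nfe2l2. Hbb-bt, Gata1, Hba-a1, Alas2, S100a8, the untested genes and the ratios of the closing section were named after their values were seen. Transcript copies were found with minimap2 2.31-r1302 at an identity of at least 90%. Sequences are from RefSeq tables of build GRCm38.p6.

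Alternatives were DESeq2 1.42.0 with and without Cook's cutoff, voom with quality weights in limma 3.58.1, DESeq2's size factors, library totals alone, other filters on low counts, a replicate block and leaving out each sample in turn. A prior count of 0.5 and relabelling within sex were added after the values were seen. The fit was tested on simulated data with known changes.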

Additional observations from a re-analysis of the deposited data

Results flagged for a closer look

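A mouse far from the others of its genotype was looked for in 24 sets of 6 values in CPM with Dixon's ratio of the gap to the range. For normally distributed values chance alone exceeds its limit in about 1 of 20 sets. That rate need not hold for genes at or near 0 in several mice, as the 2 genes below are. Of the 24 sets, 2 held such a mouse. Hmox1 had 38.0 CPM in WT replicate 6, and the next highest WT mouse had 10.4 CPM. Slc7a11 had 8.74 CPM in WT replicate 2, and the next highest WT mouse had 0.36 CPM. Without WT replicate 6 the log2 fold change of Hmox1 was -0.50, against -1.95 with all mice.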

How the results depend on the processing

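The count of genes called among all tested was 24 in the reported fit, 20 to 28 when single mice were left out, 8 without a filter beyond 1 read, 305 with DESeq2, 950 with DESeq2 without Cook's cutoff, and 5 with the replicate block. None of the 10 Nrf2 genes was called under any of these. In the wider list DESeq2 called 1 gene with and 1 without Cook's cutoff (Abcc2). The cause of these shifts was not tested. Same-numbered WT and Pon2-/- samples did not deviate together (correlations of 0.00108 to 0.0431), and 1 of 6 WT samples matched its own number best, so the replicate block tests shared numbers only. Under it the exact p was 0.0313 for Nfe2l2 and 0.0625 for Gclc. With 6 pairs the two-sided exact test can give nothing below 0.0313, so these values are coarse. The Nfe2l2 log2 fold change stayed at 0.66 to 0.88 with single mice left out, and its adjusted p over all alternatives was 0.0243 to 1. For G6pdx the log2 fold change was -0.072 to 0.36 and the difference of mean log2 CPM -0.082 to 0.49 over the samples left out. The log2 fold changes of Nqo1, Hmox1 and Srxn1, which have mice at 0, were -2.61, -2.66 and -2.68 with limma voom and -1.38, -4.96 and -1.57 with the replicate block.

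Correlations with Nfe2l2 changed sign as follows. By Spearman's rho they did so for Nqo1 (0.17) and Hmox1 (-0.063), and within WT for Keap1 (0.27), Nqo1 (0.044) and Gclc (0.35). Within Pon2-/- HSCs they did so for Nqo1 (0.73), Gclc (0.70), Srxn1 (0.15) and G6pdx (-0.63), and without the 2 mice farthest in Nfe2l2 for Nqo1 (0.17), Gclc (0.044) and G6pdx (-0.48). Leaving out single mice gave -0.12 to 0.10 for Nqo1, -0.12 to 0.37 for Hmox1, -0.33 to 0.14 for Slc7a11 and -0.066 to 0.47 for G6pdx. Relabelling within sex gives a permutation p only and cannot change a call, which rests on the fitted test. Of the 10 genes, Nfe2l2 (0.0143) and Gclc (0.0257) alone had an exact permutation p under 0.05 with it, as they did without it. The biological coefficient of variation of 99.2% limits what 6 mice per genotype can show.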

Other observations

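The ratios of regulator to inhibitor and of the subunits of glutamate-cysteine ligase were formed after the values were seen, and are given as values. The ratio of Nfe2l2 to Keap1 per length was 1.8, 1.13, 3.09, 2.99, 2.36 and 2.13 in WT replicates 1 to 6 and 6.85, 4.52, 2.84, 6.98, 10.8 and 3.51 in Pon2-/- replicates 1 to 6. Of the Pon2-/- mice, 5 were above all WT mice, and the difference of the mean log2 ratio was 1.32 (exact permutation p = 0.00649, 0.00216 to 0.0152 with single mice left out, 0.0143 within sex and 0.0625 with the replicate block).

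The ratio of Gclm to Gclc was 0.287, 0.726, 1.09, 0.686, 3.17 and 0.66 in WT replicates 1 to 6 and 5.7, 14.8, 18.1, 6.98, 1.57 and 1.18 in Pon2-/- replicates 1 to 6. WT replicate 5 was the only WT mouse inside the Pon2-/- range. The difference of the mean log2 ratio was 2.65 (exact permutation p = 0.0152, 0.00866 to 0.0281 with single mice left out, 0.0229 within sex and 0.0938 with the replicate block). Since both ratios were picked from these samples, their p-values describe these data and carry no weight as independent evidence.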
